A study of Mus musculus with 4 samples.

Results

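Box C/D small nucleolar RNAs (snoRNAs) were examined in RNA from the outflow tract of mouse hearts, the arterial pole from which the roots of the aorta and the pulmonary artery arise. The members were all genes of the count table whose mouse symbol is Snord followed by a number. They were 99 of 45706 genes, with 98 symbols, since Snord80 is annotated as 2 overlapping genes. All embryos were C57BL/6 at embryonic day 12.5. The WT group was wild type. In the Sox17eKO group, Cre recombinase driven by an Nfatc1 enhancer removed Sox17 from the endothelial cells of the aortic root. Sox17 encodes a transcription factor of endothelium. Other cells of the dissected tissue lay outside the deleted territory, and their share was not measured. Each library was made from 10 pooled hearts, and each genotype had 2 libraries, and all p-values measure the spread between these pools. The study asked which genes are targets of SOX17.

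Box C/D snoRNAs are short nucleolar RNAs that guide the methylation of ribose in ribosomal and spliceosomal RNA. A few, such as U3, U8, U13, U14 and U22, take part in the processing or acetylation of the ribosomal RNA precursor. Each folds so that its box C near the 5′ end meets its box D near the 3′ end, where fibrillarin, NOP56, NOP58 and SNU13 bind. In mammals most are cut out of the introns of host genes, many of which encode ribosomal proteins or are noncoding, while a few are transcribed from promoters of their own.

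The sequences below are those the results turn on, from GENCODE M21 transcripts (GRCm38), 5′ to 3′, as the DNA letters of the RNA strand. Capitals mark the core of box C (TGATG, searched on the RNA strand in the first 30 bases) and box D (CTGA, in the last 20 bases). The first 3 were among the 4 members with the highest levels per length, the next 3 differed between the genotypes, and the following pair share the host gene Rpl3 but not its level. The last stands for 14 identical genes.
Snord104: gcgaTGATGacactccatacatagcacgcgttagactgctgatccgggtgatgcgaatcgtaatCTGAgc
Snord22: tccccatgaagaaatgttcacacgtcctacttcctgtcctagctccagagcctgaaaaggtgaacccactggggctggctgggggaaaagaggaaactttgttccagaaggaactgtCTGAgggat
Snord118: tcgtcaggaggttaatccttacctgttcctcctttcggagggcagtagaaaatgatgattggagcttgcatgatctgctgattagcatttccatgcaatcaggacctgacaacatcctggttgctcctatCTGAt
Snord89: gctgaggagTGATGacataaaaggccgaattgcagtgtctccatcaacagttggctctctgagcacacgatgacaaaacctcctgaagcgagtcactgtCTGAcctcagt
Snord17: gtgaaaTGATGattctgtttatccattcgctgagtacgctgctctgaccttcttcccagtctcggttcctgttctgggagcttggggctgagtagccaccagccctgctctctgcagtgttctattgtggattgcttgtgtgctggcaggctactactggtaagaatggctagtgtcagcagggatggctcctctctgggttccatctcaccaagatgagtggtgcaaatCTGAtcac
Snord15a: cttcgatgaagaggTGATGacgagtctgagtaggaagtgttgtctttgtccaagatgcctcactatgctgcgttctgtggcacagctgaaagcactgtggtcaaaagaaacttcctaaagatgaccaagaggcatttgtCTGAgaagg
Snord83b: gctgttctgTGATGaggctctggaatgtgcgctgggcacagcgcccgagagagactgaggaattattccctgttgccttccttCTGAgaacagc
Snord43: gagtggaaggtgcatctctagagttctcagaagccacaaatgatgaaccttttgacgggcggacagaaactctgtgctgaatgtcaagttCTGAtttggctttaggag
Snord116l1: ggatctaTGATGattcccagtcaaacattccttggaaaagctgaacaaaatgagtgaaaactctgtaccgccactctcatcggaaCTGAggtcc

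Both boxes stood at their usual ends in most members. Of the 99 genes, 87 (87.9%) held both strings of letters in these windows, 89 held that of box C and 97 that of box D. The same windows held both in 0 of 42 box H/ACA snoRNA genes (Snora), in 5 of 1961 microRNA genes (0.3%) and in 0 of 1328 small nuclear RNA (snRNA) genes of the same range of lengths. Snord22 and Snord118 had no TGATG in the window, which says only that these letters are not there. Snord43 is listed in the annotation as a microRNA gene, and its symbol placed it in the family. Members were 64 to 238 bases long, with a median of 84.

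Depth was 12880081 and 8113463 reads in genes for WT replicates 1 and 2, and 14306550 and 21883956 for Sox17eKO replicates 1 and 2. Levels are given in CPM, read counts scaled to the size of each library. Sox17, the targeted gene, was at 6.05 and 6.83 CPM in WT and at 2.76 and 2.82 in Sox17eKO (log2 fold change -1.19, SE 0.23, edgeR adjusted p = 0.00574, where SE is the standard error). All lists of markers used to check the tissue (cardiomyocyte, smooth muscle, endothelium, cushion mesenchyme and outflow tract progenitors) had reads for every gene. The share of HTSeq reads in no annotated feature was 22.2% and 20.4% for WT, and 34.1% and 29.5% for Sox17eKO.

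Whether a Snord gene had any reads went with where it lies in its host. Of the 99 genes, 50 had at least 1 read in the 4 libraries and 49 were at 0 in all of them. A count of 0 allows a level of up to 3 reads, which is 0.137 to 0.370 CPM depending on the library and covers counting error only. All 3 genes with no annotated host on their strand (Snord13, Snord104 and Snord118) had reads. Of the genes lying wholly in an intron of their host, leaving out the Snord116 cluster, 36 of 38 had reads, with Snord32a and Snord34 of the Rpl13a gene at 0. Of the genes lying wholly within an annotated exon of their host, 7 of 37 had reads. Among those 37 were all Snord genes annotated within Gas5 (Snord47, Snord78 and both Snord80 genes), Hspa8 (Snord14c, Snord14d and Snord14e) and Rack1 (Snord95 and Snord96a), each at 0.

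The hosts of the members at 0 had reads, with 1 exception. Leaving out the Snord116 cluster, 20 genes hosted them, and 19 of these passed the filter on low counts. Gas5 was at a mean of 131 CPM, Hspa8 at 184 and Rack1, the highest, at 1112. Gm20388, taken as the host of Snord68, was listed at 0. The exon that holds Snord68 is annotated to Rpl13, a gene of the count table whose level was not examined. This exception therefore rests on the choice of host. A read that overlaps the exons of more than 1 gene is by default set aside as ambiguous in HTSeq. The sources used here do not give the overlap setting of the authors. The part of this step in the zeros was not tested, and a 0 in these genes may not measure the snoRNA. Snord22 lies within an exon of Snhg1, whose GENCODE M21 entry is not in the count table, and was among the members with the most reads. The other 6 members with reads that lie wholly within an exon have a host in the count table: Snord16a had 18492 reads in all, Snord100 7910, Snord69 5307, Snord35b 2122, Snord14a 666 and Snord19 162. Snord4a and Snord42a lie wholly opposite annotated exon sequence on the other strand and had 328 and 277 reads in all.

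**Figure D1:**
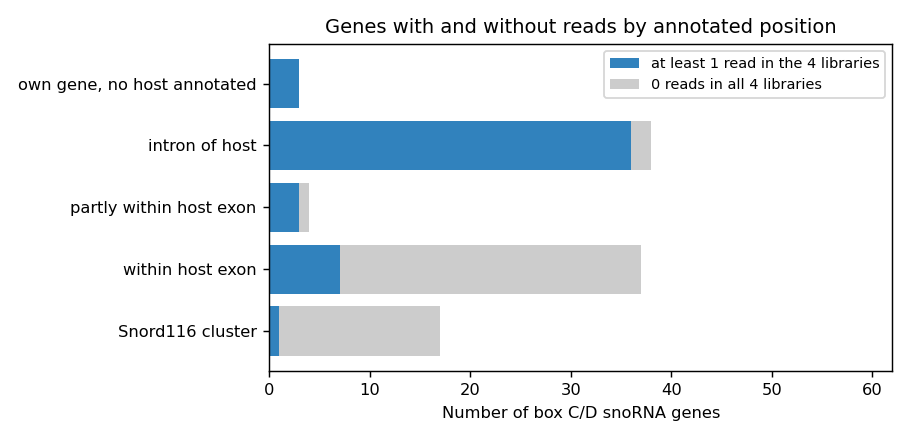
Number of box C/D snoRNA genes (x axis) by annotated position (y axis), split into genes with at least 1 read in the 4 libraries and genes at 0 in all. Of genes in host introns 36 of 38 had reads, and of genes within a host exon 7 of 37 did.

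The Snord116 genes, which lie in the imprinted Prader-Willi syndrome locus inside Snhg14 and are known from the brain, gave almost no reads. Of 17 such genes, 16 were at 0, and Snord116l14 had 1 read, in Sox17eKO replicate 1. Of the 17, 14 share the sequence printed for Snord116l1 letter for letter, so a read from any of them could not be placed uniquely. Their level in this tissue therefore cannot be read from unique counts.

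Among the 48 members that passed the filter on low counts, levels spanned a wide range. The mean level per length was 21792 CPM per kilobase (kb) for Snord13 and 2497-fold less for the lowest member. Of the 48, 15 were at or above 1000 CPM per kb, 22 between 100 and 1000 and 11 below 100. Their median was 608 CPM per kb, against 5.13 over all tested genes. Per-length levels of genes shorter than a sequenced fragment are not strictly comparable with those of long genes, since a fragment can reach beyond the gene. Log2 CPM of the 48 members correlated with Pearson's r of 0.993 to 0.998 between pairs of libraries, given as a description across genes that are not independent replicates. Over so wide a range of levels r stays high under a shift shared by all members.

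Snord13, the U13 snoRNA, had 21775 and 28903 CPM per kb in WT and 15642 and 20848 in Sox17eKO. Snord104, which guides methylation of the large ribosomal RNA, had 19566 and 26966 in WT, and 19410 and 19843 in Sox17eKO. Their order was not the same in every library, since Snord104 was above Snord13 in Sox17eKO replicate 1 and below it elsewhere. Snord22, the U22 snoRNA, which is needed to mature the small ribosomal subunit RNA, followed with 14918 and 17289 in WT and 13415 and 13143 in Sox17eKO. Snord118, the U8 snoRNA, which is needed to mature the RNAs of the large subunit, had 8624 and 10357 in WT and 7704 and 7652 in Sox17eKO. Snord22 was above Snord118 in all 4 libraries, and both were below Snord13 and Snord104. These 4 genes took 64.9% ± 0.0405 of all Snord reads in WT (SD, n = 2). The share was 63.4% ± 1.70 (SD, n = 2) in Sox17eKO. Snord49b, Snord83b, Snord16a, Snord49a, Snord17, Snord15a, Snord100 and Snord65 were next, from 6342 down to 1773 CPM per kb.

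**Figure D2:**
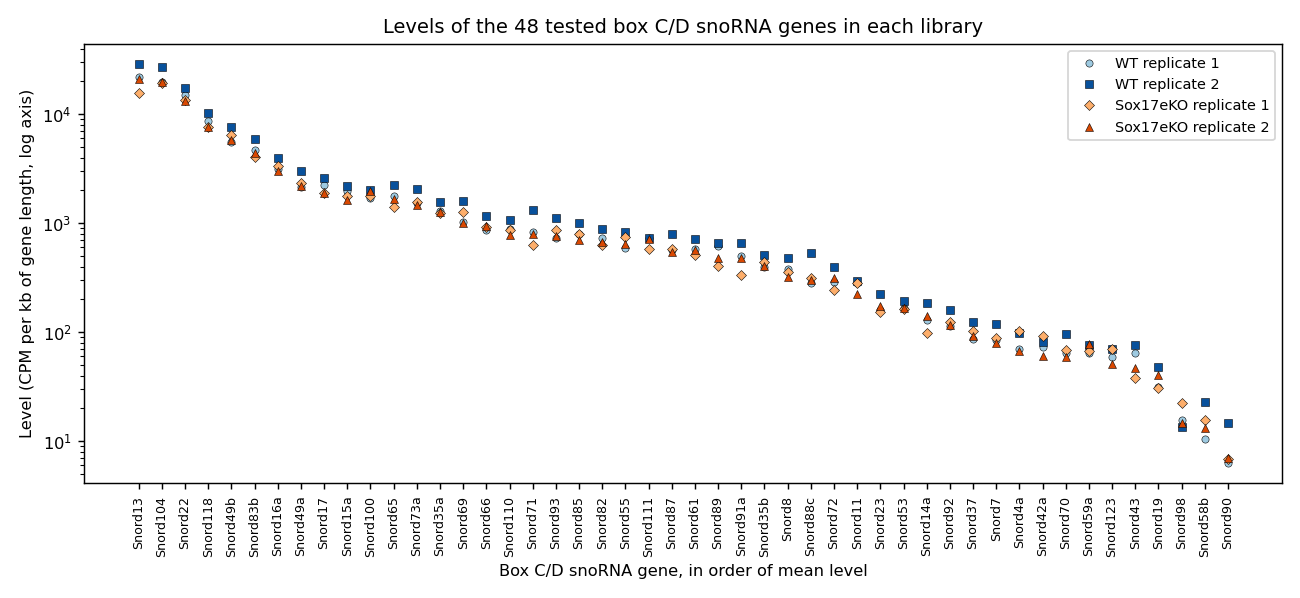
Level of each of the 48 tested box C/D snoRNA genes in CPM per kb of gene length (y axis, log scale), ordered by mean level (x axis), with 1 point per library. Snord13 and Snord104 lead at about the same level, and the dark squares of WT replicate 2 are the highest point for 43 of the 48 genes.

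Genes cut from the same host could lie far apart in level. In Rpl3, a ribosomal protein gene of the large subunit, Snord83b was 85.2-fold above Snord43 per length, and 74.2-fold to 107-fold in single libraries. The length of Snord43 is the 108 bases of its annotated microRNA gene. In Gnl3, which encodes nucleostemin, Snord69 was 32.4-fold above Snord19. Both lie wholly within an exon of Gnl3, where reads may have been set aside as ambiguous. Their counts, and so this gap, may not measure the snoRNAs. In the noncoding host 2410006H16Rik, Snord49b was 3.58-fold above Snord65, with Snord49a between them on the mean. Snord4a and Snord42a of Rpl23a (1.09-fold), and Snord53 and Snord92 of Wdr43 (1.34-fold), lay closer together. Per length, 42 of 44 members with a tested host were above that host, by a median of 20.5-fold. The exceptions were Snord37 in Eef2 and Snord59a in Atp5b. Levels of ribosomal protein hosts are uncertain here, because reads shared with near-identical copies of these genes elsewhere in the genome may have been lost or split in the counting.

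Between the genotypes, 3 of the 48 tested members fell in Sox17eKO and none rose. They were Snord89, Snord17 and Snord15a, and the latter pair guide methylation of the large ribosomal RNA. Over all 16570 tested genes 1.22% were called lower and 4.13% higher by edgeR's quasi-likelihood test at an adjusted p under 0.05. At an unadjusted p under 0.05, 13 members were lower and 0 higher. No share of all genes at that unadjusted p is given. Such counts, here and below, therefore have no background to be read against. DESeq2 called 7 lower and 0 higher (0.658% and 1.81% of all genes). In simulated counts of this comparison, 6% of genes given the smallest fold were called and 72% of those changed by 1.5-fold.

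Snord89 (chr1:39548745-39548854, minus strand, in an intron of the noncoding gene Gm15832) was at 67.5 and 73.1 CPM in WT and at 44.2 and 53.3 in Sox17eKO, replicate 1 first. Both Sox17eKO libraries were below both WT libraries, as in 26.2% of all tested genes. Its log2 fold change was -0.52 (SE 0.09, edgeR adjusted p = 0.00349). Its host Gm15832 was at only 1.09 and 0.506 CPM in WT and 1.86 and 1.64 in Sox17eKO, and did not pass (log2 fold change 1.02, edgeR adjusted p = 0.176). Without WT replicate 2 and without Sox17eKO replicate 1 the call of Snord89 ended (log2 fold changes -0.47 and -0.40, edgeR adjusted p = 0.0712 and 0.0602).

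Snord17 (chr2:144265979-144266216, minus strand), the longest member, lies in an intron of Snx5, which encodes a sorting nexin of the endosome. It was at 530 and 618 CPM in WT and 448 and 450 in Sox17eKO, so that the genotypes did not overlap. The log2 fold change was -0.35 (SE 0.08, edgeR adjusted p = 0.0201). Snx5 itself was at 237 and 236 CPM in WT and 209 and 210 in Sox17eKO, which missed the threshold (log2 fold change -0.17, edgeR adjusted p = 0.189). Snord15a (chr7:99482785-99482932, minus strand) lies in an intron of Rps3, a ribosomal protein gene of the small subunit. It was at 291 and 324 CPM in WT and 261 and 239 in Sox17eKO, again without overlap. The log2 fold change was -0.30 (SE 0.08, edgeR adjusted p = 0.0414). Rps3 had one of -0.22 (edgeR adjusted p = 0.116). Each of these calls ended without WT replicate 2, without Sox17eKO replicate 1 and without Sox17eKO replicate 2. For Snord17 the log2 fold changes were then -0.24, -0.35 and -0.355 (edgeR adjusted p = 0.247, 0.13 and 0.0893). Those of Snord15a were -0.22, -0.36 and -0.24 (edgeR adjusted p = 0.312, 0.0821 and 0.264). The Snord15a call also ended, at nearly the same log2 fold change, with limma-voom (-0.30, adjusted p = 0.0601), with scaling to library size only (-0.265, edgeR adjusted p = 0.0729) and without the robust option (-0.30, edgeR adjusted p = 0.0717).

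The next members by p did not pass. Snord83b (log2 fold change -0.34, edgeR adjusted p = 0.0532), Snord43 (-0.69, 0.0547) and Snord118 (-0.31, 0.0563) were closest. Snord118 was at 1164 and 1398 CPM in WT and 1040 and 1033 in Sox17eKO. Snord43 was at 6.90 and 8.22 CPM in WT and 4.07 and 5.05 in Sox17eKO, on 324 reads in all. In these 3 the genotypes did not overlap, nor did they in Snord22 (-0.28, edgeR adjusted p = 0.0769), Snord82 (-0.31, 0.0684), Snord65 (-0.38, 0.0810) and Snord8 (-0.32, 0.0938). Both Sox17eKO libraries were below both WT libraries in 26.2% of all tested genes. Since these members were picked by their p, the lack of overlap adds no support. Snord13, whose genotypes did not overlap either, had one of the larger fitted differences among abundant members (-0.47), with a 95% interval of -1.01 to 0.06. Sox17eKO replicate 1 held its lowest value, 1627 CPM, while Sox17eKO replicate 2, at 2168, was close to WT replicate 1, at 2265. Snord100, in Rps12, had a log2 fold change of 0.01 with a 95% interval of -0.17 to 0.19. Snord98 had the highest fitted value, 0.28, on 62 reads in all (95% interval -0.65 to 1.21).

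Fitted levels leaned the same way in most members. Of the 48, 44 had a lower fitted level in Sox17eKO, against 51.8% of all tested genes, and the median log2 fold change was -0.24, against -0.01 over all tested genes. Both Sox17eKO libraries were below both WT libraries in 18 members (26.2% of all tested genes) and above both in none (26.5%). With scaling to library size, DESeq2 size factors or the upper quartile, 43 or 44 of the 48 were lower, with medians of -0.21 to -0.24. With libraries scaled on the snoRNA and snRNA genes alone, which hold the members and so centre them near 0 by construction, 23 of 48 members were lower, with a median of 0.0053, and 0 were called (0 also at an unadjusted p under 0.05), against 0.0604% of all genes lower and 6.16% higher. Under that scaling the median of all genes moved from -0.01 to 0.22.

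One library carried much of the difference. WT replicate 2, the shallowest, held the highest CPM of the 4 for 43 of the 48 members (89.6%), against 32.4% of all tested genes. The other WT library was the highest for 0 members and the lowest for 13. Summed over all members, levels were 10289 and 13061 CPM in WT and 9187 and 9667 in Sox17eKO, replicate 1 first. Without WT replicate 2, 26 of the 48 members had a lower fitted level in Sox17eKO and 22 a higher one, and the median log2 fold change was -0.02. No member was then called by edgeR (4 were lower and 0 higher at an unadjusted p under 0.05), with 0.0785% of all genes called lower and 0.543% higher. Without WT replicate 1, 18 were called lower and 0 higher (1.99% and 3.87% of all genes). Without Sox17eKO replicate 1, 0 were called in either direction (0.217% and 1.53% of all genes), with 13 lower and 0 higher at an unadjusted p under 0.05. Without Sox17eKO replicate 2, Snord13, Snord65, Snord89 and Snord91a were called lower (0.803% of all genes) and 0 higher (3.05%). Without a filter on low counts 12 were called lower and 0 higher (1.38% and 3.49% of all genes).

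Some other values of the libraries moved with the summed Snord levels. The share of reads in no feature ran in the opposite order, being lowest in WT replicate 2 and highest in Sox17eKO replicate 1. The share of ambiguous reads was 5.05% and 6.22% in WT and 3.38% and 5.39% in Sox17eKO, which is not the order of the Snord levels, since WT replicate 1 was below Sox17eKO replicate 2. Summed levels of 4 erythroid marker genes, all of them with reads and 1 of them called lower, were 2058 and 2658 CPM in WT and 1334 and 1809 in Sox17eKO. Those of 4 endothelial markers, of which Tie1 was called lower, were 465 and 487 in WT and 405 and 439 in Sox17eKO. Both sums had the order of the Snord levels. Those of 4 markers of cushion mesenchyme, of which Vcan was called higher, ran in the opposite order, at 3023 and 2454 CPM in WT and 3741 and 3423 in Sox17eKO. Of these 4 markers, 2 had a lower fitted level, Twist1 (log2 fold change -0.22) and Sox9 (-0.07). Sums of the cardiomyocyte, smooth muscle, outflow tract progenitor, neuron and liver markers had neither order. Those of cardiomyocytes, for example, were 11255 and 11633 CPM in WT and 12070 and 13783 in Sox17eKO. The part of each in the Snord levels was not tested, and fewer cells of a type and less RNA per cell cannot be told apart in pooled tissue.

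Fitted differences were more negative in longer members, with and without WT replicate 2. In the 10 tested members of 100 bases or more, the median log2 fold change was -0.33, and -0.20 without WT replicate 2. The 16 members of 80 to 99 bases had medians of -0.25 and -0.03. The 22 members under 80 bases had medians of -0.12 and 0.08. All 3 called members were in the longest group. Across the 48 members, length and log2 fold change had a Spearman's rho of -0.57, and of -0.52 without WT replicate 2. These are descriptions over genes that share the same 4 libraries.

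**Figure D3:**
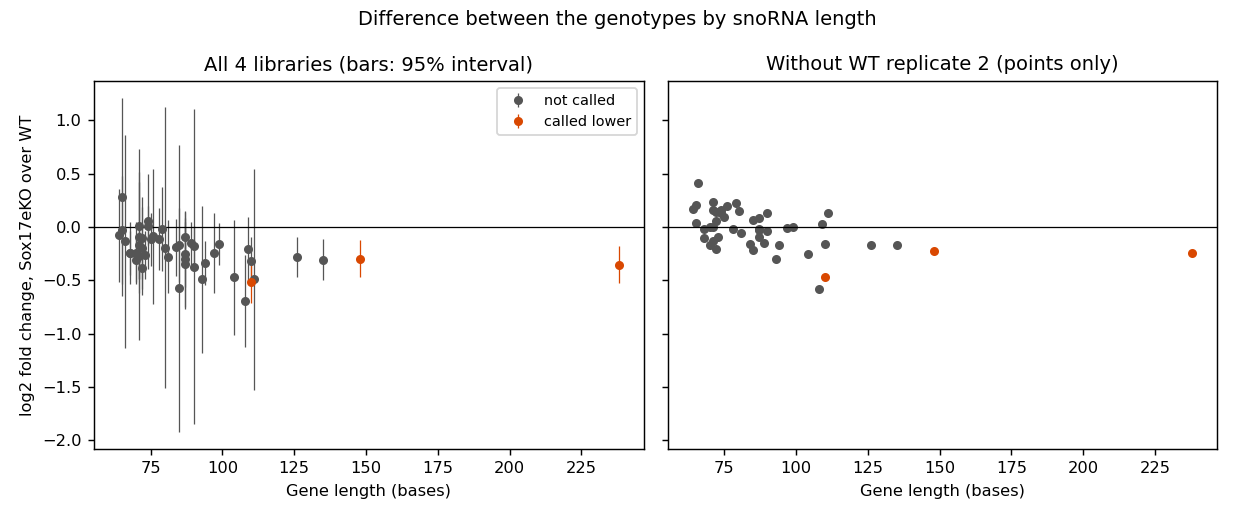
Log2 fold change of Sox17eKO over WT (y axis) against gene length in bases (x axis) for the 48 tested members, with all libraries and 95% intervals (left) and without WT replicate 2 (right). Points lie higher on the right, where the median is -0.02, and the longer members stay below 0 in most cases (8 of 10 members of 100 bases or more).

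Most hosts did not pass the test. Of 37 tested host genes, 3 were called higher and 0 lower, against 4.13% and 1.22% of all tested genes. Of these hosts 18 had a lower fitted level (51.8% of all tested genes), and the median log2 fold change of the hosts was 0.0093. Among the called hosts were Chd8, a chromatin remodeller (0.32, edgeR adjusted p = 0.0268), and Ccar1, a coactivator of transcription (0.26, 0.0443). Their snoRNAs Snord8 (-0.32) and Snord98 (0.28) were not called. In 37 of 44 pairs the log2 fold change of the snoRNA was below that of its host, and in 25 of 44 without WT replicate 2. Across the 44 pairs the log2 fold changes had a Spearman's rho of -0.13, a description over pairs that share libraries and, in places, a host. The difference between a snoRNA and its host was not tested in single pairs. The Chd8 call ended without WT replicate 2 or either Sox17eKO library, and with limma-voom. Ccar1 was named after its value was seen and was not refitted by library.

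**Figure D4:**
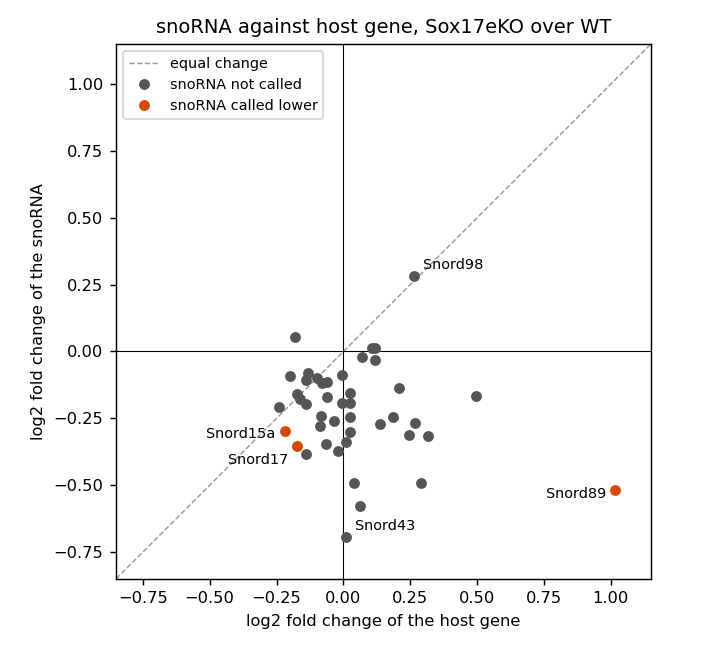
Log2 fold change of each snoRNA (y axis) against that of its host gene (x axis) for 44 pairs, Sox17eKO over WT, with a dashed line of equal change. Most points lie below the line (37 of 44), and hosts scatter around 0 while most snoRNAs lie below 0.

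The proteins that build box C/D particles were measured at the RNA level. Of the 4 core proteins, none was called: Fbl, the methyltransferase fibrillarin, had a log2 fold change of 0.18, Nop56 0.02, Nop58 0.02 and Snu13 -0.19. Snu13, which binds the box C/D fold first, was at 46.7 and 47.3 CPM in WT and 45.2 and 37.7 in Sox17eKO (edgeR adjusted p = 0.298). Of 12 assembly and transport genes analysed, 0 were called, with log2 fold changes from -0.52 for Coil, the scaffold of Cajal bodies, to 0.30 for Tgs1, which caps U3, U8 and U13 type RNAs. Neither passed (edgeR adjusted p = 0.202 and 0.112). Of 10 genes listed for the trimming or debranching of snoRNAs, 1 was called higher and 0 lower (4.13% and 1.22% of all tested genes). This was Xrn1, a 5′ to 3′ exonuclease, which rose from 70.7 and 63.1 CPM in WT to 93.5 and 85.2 in Sox17eKO. Its log2 fold change was 0.41 (SE 0.08, edgeR adjusted p = 0.00856). Xrn2 of the same list was not called (-0.03, edgeR adjusted p = 0.852). Whether Xrn1 acts on snoRNAs in this tissue was not tested. The Xrn1 call ended without WT replicate 2 or Sox17eKO replicate 1 (edgeR adjusted p = 0.145 and 0.0905). No gene of 8 in the list of U3 and the small subunit processome passed, nor any of 6 for box H/ACA particles.

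With the scaling on all genes, other short RNA classes leaned the same way as the Snord genes, apart from microRNA genes. Of 19 tested Snora genes, 5 were called lower and 0 higher, with a median log2 fold change of -0.33, and -0.17 without WT replicate 2. For 8 tested small Cajal body RNA genes (Scarna) 2 were lower and 0 higher, with medians of -0.30 and -0.22. The 214 tested snRNA genes had 10 lower and 1 higher, with medians of -0.22 and -0.10, and many of them are near-identical copies. The 47 tested microRNA genes had 0 lower and 1 higher, with medians of 0.05 and 0.14. Over all tested genes 1.22% were called lower and 4.13% higher. Tested lengths had a median of 82.5 bases in Snord, 132 in Snora and 140 in Scarna genes. Both Sox17eKO libraries were below both WT libraries in 37.5% of Snord, 84.2% of Snora and 75.0% of Scarna genes. The share was 35.0% in snRNA genes, 8.51% in microRNA genes and 26.2% over all tested genes. Differences between these classes were not tested.

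**Figure D5:**
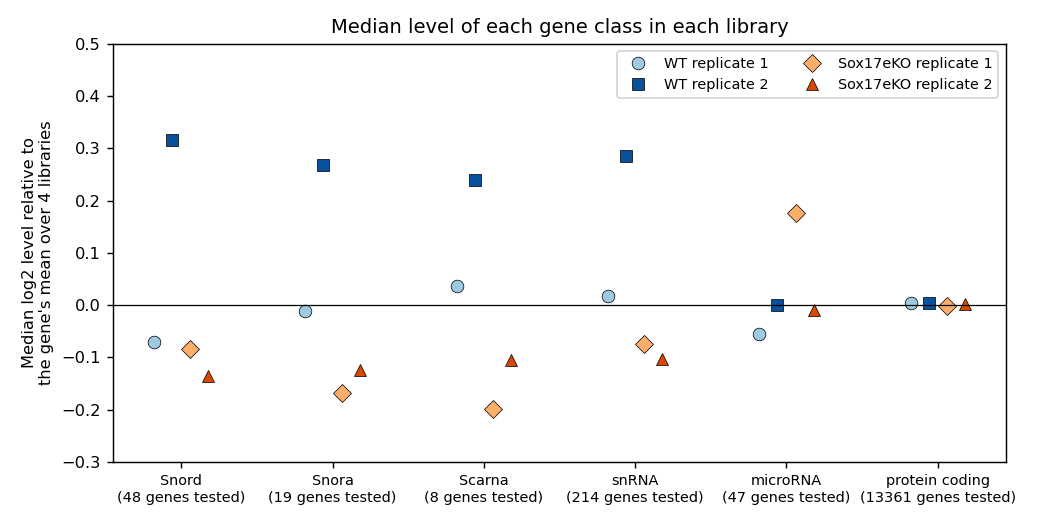
Median over the tested genes of each class of the log2 level in a library relative to the gene's mean over the 4 libraries (y axis), with 1 point per library. In the Snord, Snora, Scarna and snRNA classes WT replicate 2 lies highest, at 0.24 to 0.32, and in protein-coding genes all 4 libraries lie at 0.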

How the data were processed

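The deposited values are unnormalized read counts for each Ensembl gene. The libraries were strand-specific and made from total RNA, per the labels' protocols. TopHat2, HTSeq and mm10 are named in the submitters' processing notes, with versions, annotation release, strand and overlap settings not given in the sources used here. Symbols, hosts, exons, lengths and sequences came from GENCODE M21 (GRCm38), which may differ from the release counted on, and 563 of 45706 genes did not match. HTSeq's summary rows were left out. A host is a gene on the same strand that contains the snoRNA. Where several did, genes of the count table came first, and then the gene with the greatest length of exons. Genotypes were compared with edgeR 4.0.16 (R 4.3.3, quasi-likelihood, robust, TMM scaling) on the 16570 genes that passed filterByExpr, with Benjamini-Hochberg adjustment. Levels are TMM-scaled CPM. Standard errors were computed as the absolute log2 fold change divided by the root of the F statistic. Alternatives included DESeq2 1.42.0, limma-voom 3.58.1, other scalings and filters, a replicate block and each library left out. Scripts were tested on simulated counts of the 16570 genes, drawn independently (200 changed), where 5.15% of calls were false. The libraries of a genotype were separate samples, with a chi-square of 4.77 (WT) and 6.01 (Sox17eKO) for each degree of freedom.

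Named genes were the called Snord genes, the 12 highest per length, the next 8 by p, U type members, their hosts, the core proteins and called genes of the lists. Other names were chosen after their values were seen. Members, lists and rules were chosen with earlier results of these data known. Values of 1 called host gene and the sequence of 1 member are not reported here.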

Additional observations from a re-analysis of the deposited data

How the results depend on the processing

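Of the 48 members, 3 were called lower. The count was 7 with DESeq2, 12 without a filter (50 tested) and 12 with the replicate block, and 0 to 18 with 1 library left out. With 1 library left out the lone library of a genotype is assumed to vary like the others. Other scalings, the filter at 1 CPM, limma-voom and the fit without the robust option moved this count by no more than 1.5 times. All genes called numbered 886, and 409 with DESeq2, 517 with limma-voom, 1364 without a filter, 1684 with the replicate block and 103 to 970 with 1 library left out. Deviations of same-numbered libraries from the mean of their genotype correlated at -0.03 across genes. With 2 libraries per genotype this is a single correlation, so it cannot decide whether the numbers pair the libraries. Members with a lower fitted level numbered 26 to 47 with 1 library left out, and their median ran from -0.43 to -0.0168. Scaling on snoRNA and snRNA genes, chosen after seeing the data, gave 0 calls, 23 lower members and a median of 0.0053. This scaling moved the median of all genes to 0.22, so that small negative log2 fold changes turned positive by construction, for Snord104 (0.0076), Snord49b (0.14), Snord16a (0.0857), Snord49a (0.0518), Snord35a (0.0633), 2410006H16Rik (0.0917), Rpl4 (0.059), Snx5 (0.0569), Rps3 (0.0142), Rpl13a (0.0779), Snhg6 (0.19) and Snu13 (0.045).

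With 1 library left out, signs turned for Snord104 (-0.46 to 0.0017), Snord49b (-0.32 to 0.14), Snord16a (-0.31 to 0.0032), Snord49a (-0.42 to 0.0566), Snord100 (-0.11 to 0.13), Rpl3 (-0.0483 to 0.0765), Nop56 (-0.0259 to 0.0734), Snhg6 (-0.24 to 0.17) and Nop58 (-0.0696 to 0.11). The cause of these shifts was not tested. Low counts limit the members with the fewest reads, such as Snord98.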
